A study of Mus musculus with 31 samples.

Results

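Of the 31 arrays of mouse distal colon RNA, 4 had a high signal of Krt5, the type II keratin of the basal layer of stratified squamous epithelium. These 4 arrays were chosen by the measured Krt5 signal itself. For this choice the log2 signal was set against the array's 75th percentile, the mean of the probe over the 31 arrays was subtracted, and an array was taken when the result was above 4. The 4 arrays were male 1 of CRC at 7 days (8.76), male 2 of CRC + E171 at 14 days (8.70), female 1 of CRC at 21 days (7.71) and female 1 of CRC + E171 at 21 days (4.99). Of the 27 arrays not chosen, the nearest to the threshold were male 2 of CRC + E171 at 2 days (2.82) and female 2 of CRC at 7 days (1.91). The other 25 lay between -2.52 and -0.48.

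All mice were BALB/c and had received azoxymethane (AOM) and dextran sodium sulfate (DSS), which together give colitis-associated colorectal tumours. CRC mice received the vehicle by gavage, and CRC + E171 mice received 5 mg/kg of body weight per day of E171, the food-grade titanium dioxide. Exposure lasted 2, 7, 14 or 21 days, with 4 mice of both sexes per group and 3 for CRC at 21 days, and each array held the RNA of a separate mouse. The chosen arrays included 2 CRC and 2 CRC + E171 mice, and 2 males and 2 females. They lay on 3 of the 8 slides, each of which also held arrays that were not chosen. The share of spots well above background was 68.2 to 76.3% on the 4 arrays and 67.4 to 78.9% on the 27 others. Precision is limited by how few arrays there are. In 1 library the data went against the label, since the array labelled male 2 of CRC at 14 days had a log2 Xist signal of -1.60, within the range of the females (-2.34 to -0.70) and above the other males (-8.51 to -6.53). It is not among the 4 arrays.

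Stratified squamous epithelium renews itself from a basal layer that expresses Krt5 with its partner Krt14 under the transcription factor p63. Cells that leave the basal layer switch keratins, to Krt4 and Krt13 in moist epithelia such as the oesophagus, and to Krt1 and Krt10 in epidermis, where cross-linked precursor proteins and lipids then form the cornified envelope. The colon is lined by a single layer of columnar cells that use simple keratins, and squamous epithelium begins at the anal canal and the skin around it. In RNA of whole tissue, fewer cells of a type and less RNA per cell cannot be told apart.

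Values below are log2 signals minus the 75th percentile of the array, so 0 lies at that percentile, and a level of 1 probe cannot be set against that of another. Krt5 (probe at chr15:101537514-101537573, mm9) had values of 6.65, 6.58, 5.60 and 2.88 on CRC 7 d male 1, CRC + E171 14 d male 2, CRC 21 d female 1 and CRC + E171 21 d female 1, the order kept for every gene below. The 27 other arrays ran from -4.63 over a median of -3.35 to 0.71. Krt14, the type I partner of Krt5 (probe at chr11:100064495-100064554, mm9), had values of 7.44, 6.83, 6.71 and 2.95, against -3.36, -1.10 and 1.95 for the lowest, median and highest of the other arrays. All 4 arrays lay above all others for both keratins, and the CRC + E171 female of 21 days was the lowest of the 4 for both. Krt13, a suprabasal keratin of non-cornified epithelia, had values of 4.13, 4.19, 3.95 and 1.57, against -8.60, -5.66 and -1.37. Its 2 probes (chr11:99980412-99980471 and chr11:99980710-99980948, mm9) each gave a mean difference of 8.33 between the 4 arrays and the others. The mean difference was 8.66 for Krt5 and 6.86 for Krt14. Since Krt5 chose the arrays and these keratins belong to the same cells, the differences are given as a description, with no test.

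**Figure D1:**
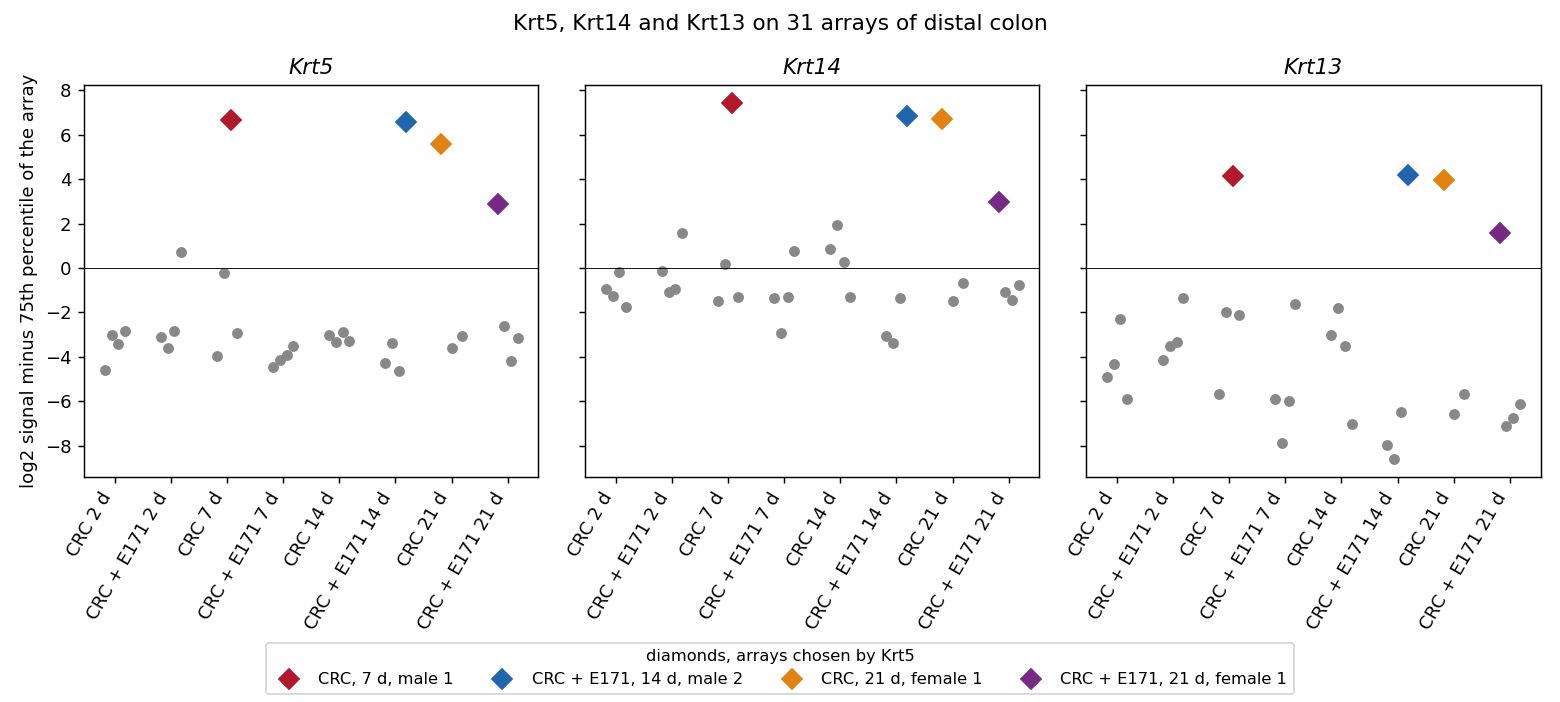
Log2 signal minus the 75th percentile of the array (vertical axis) of Krt5, Krt14 and Krt13 in the 8 groups (horizontal axis), 1 point per array, with diamonds for the 4 arrays chosen by Krt5. In each panel all 4 diamonds lie above the grey points, and CRC + E171, 21 d, female 1 is the lowest of them.

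The promoters of 5 genes of different layers are shown here because the results below turn on these layers. They are the 250 bases before the RefSeq gene start (GRCm38.p6, minus strand in each case), for Krt5 (basal), Krt13 (suprabasal, the more upstream of 2 starts), Krt10 (epidermal) and the cornified envelope genes Lor and Sprr1a. Capitals mark the letters TATAAA or TGANTCA, searched on both strands. TGANTCA takes in TGACTCA and TGAGTCA, the core recognised by AP-1 factors, but also TGAATCA and TGATTCA.
Krt5, chr15:101712906-101713155: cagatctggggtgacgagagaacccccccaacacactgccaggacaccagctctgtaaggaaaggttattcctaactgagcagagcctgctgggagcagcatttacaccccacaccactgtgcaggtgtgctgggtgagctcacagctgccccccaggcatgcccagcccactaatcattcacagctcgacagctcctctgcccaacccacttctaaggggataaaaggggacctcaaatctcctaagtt
Krt13, chr11:100121567-100121816: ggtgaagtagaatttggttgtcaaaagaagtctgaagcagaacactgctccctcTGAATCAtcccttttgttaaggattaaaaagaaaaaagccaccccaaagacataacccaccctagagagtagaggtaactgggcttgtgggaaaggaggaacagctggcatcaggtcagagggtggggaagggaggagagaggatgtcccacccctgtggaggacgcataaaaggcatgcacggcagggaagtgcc
Krt10, chr11:99389365-99389614: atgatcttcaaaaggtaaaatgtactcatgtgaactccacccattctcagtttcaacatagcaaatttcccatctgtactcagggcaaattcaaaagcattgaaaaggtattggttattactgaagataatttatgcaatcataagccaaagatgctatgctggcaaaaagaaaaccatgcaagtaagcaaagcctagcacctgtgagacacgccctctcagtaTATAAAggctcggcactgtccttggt
Lor, chr3:92083143-92083392: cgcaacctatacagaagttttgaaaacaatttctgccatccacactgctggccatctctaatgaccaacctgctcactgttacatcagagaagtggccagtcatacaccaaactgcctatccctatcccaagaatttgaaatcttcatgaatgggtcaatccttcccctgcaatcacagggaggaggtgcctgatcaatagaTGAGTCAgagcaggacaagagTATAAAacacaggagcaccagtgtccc
Sprr1a, chr3:92485882-92486131: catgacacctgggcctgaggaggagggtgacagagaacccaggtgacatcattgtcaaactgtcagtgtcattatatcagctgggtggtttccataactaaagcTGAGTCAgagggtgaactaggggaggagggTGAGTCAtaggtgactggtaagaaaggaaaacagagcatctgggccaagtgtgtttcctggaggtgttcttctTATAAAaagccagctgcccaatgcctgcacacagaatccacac

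Sprr1a held TGANTCA at 2 positions, Krt13 and Lor at 1, and Krt5 and Krt10 at none in this window. The Krt13 match is TGAATCA, and the window of the other Krt13 start held TGANTCA at 2 positions, both as TGACTCA. Over the windows of all 32851 RefSeq promoters, 6.75% held TGANTCA and 12.4% held TATAAA. Of the 144 promoters of the squamous genes that had an entry (125 genes), 24.3% held TGANTCA and 25.7% TATAAA. For the 67 promoters of the genes higher on all 4 arrays than on all others (58 of 91 had an entry) the shares were 25.4% and 17.9%. Among the 47 promoters of cornified envelope precursors the shares were 44.7% and 40.4%. Many of these precursors are neighbouring copies of a few families, so their promoters are not independent, and a match of letters is no measurement of binding.

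Without a filter on dim probes, 91 of 24813 genes (0.367%) were higher on all 4 arrays than on all 27 others with a mean at least 2-fold higher. With the filter, which drops genes that are bright on single arrays of a group only, there were 67 of 19797 genes (0.338%), 63 of them shared. The squamous lists used here hold 180 genes in 17 roles. Of these, 179 were measured, 134 passed the filter and 36 were among the 91 genes. Their median difference was 3.52, or 2.74 after the filter, where the median over all genes was -0.02 and -0.03. As Krt5 chose the contrast, nothing is read from these shares, and the genes are described below over all measured genes. Counts of genes with a positive difference or no overlap in the lists below stand beside 11729 and 91 of all 24813 genes.

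**Figure D2:**
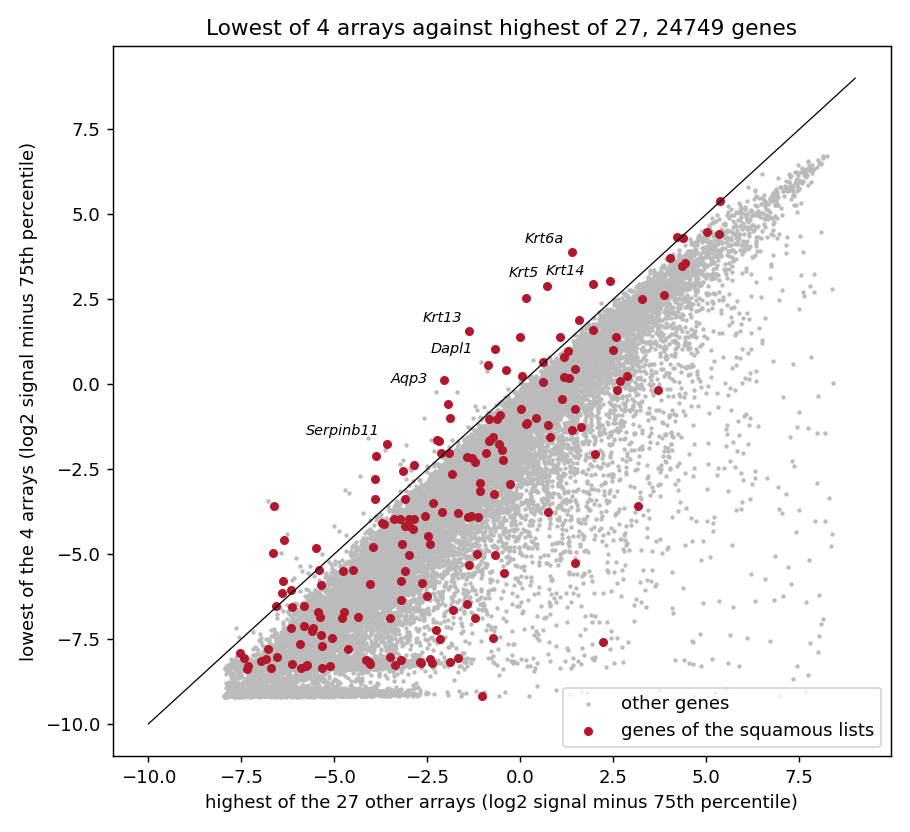
Lowest value of the 4 arrays (vertical axis) against the highest value of the 27 other arrays (horizontal axis), both as log2 signal minus the 75th percentile, for each gene measured on all arrays. Points above the diagonal are genes whose 4 arrays lie above all others, with genes of the squamous lists in red. Krt6a, Krt5 and Krt13 are among the red points, and Aqp3, which is in no list, lies above the diagonal in grey.

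The gap between the lowest of the 4 arrays and the highest of the others was widest, among genes that passed the filter, for Krt13, Krt6a, Krt6b, Krt5, Aqp3, Serpinb11, Serpinb2, Dapl1, Crnn and Krt15. Aqp3, a water and glycerol channel of basal cells, had values of 3.97, 3.92, 0.95 and -0.25, against -5.92, -4.03 and -2.28. Crnn, which encodes cornulin of oesophageal and other squamous cells, had values of -0.27, -1.94, -0.59 and -1.74, against -7.24, -5.20 and -3.65. Both stood clear of the other arrays, with mean differences of 6.20 and 4.30. Dapl1, a gene of early epithelial differentiation, had values of 5.67, 2.41, 1.66 and 0.65, against -7.21, -2.82 and -1.07.

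Among the basal keratins, Krt15, a keratin of basal and stem cells, had values of 3.56, 4.74, 1.47 and 1.02, against -5.19, -3.57 and -0.67. Krt17, a keratin of appendages and stressed epithelium, had values of 6.25, 3.82, 1.76 and -0.73, against -1.31, -0.16 and 1.46. For Krt17 the groups overlapped, because the CRC + E171 female of 21 days lay within the other arrays. The keratins of wounded and hyperproliferative epithelium were Krt6a (7.01, 6.61, 6.45 and 3.90, against -3.52, -1.74 and 1.38), Krt6b (5.31, 2.53, 6.56 and 2.70, against -4.86, -3.79 and 0.16) and Krt16 (2.15, 0.14, 6.43 and -1.94, against -2.73, -1.78 and -0.49). Krt6a and Krt6b are near-identical copies, and their probes may share signal. Krt16 was highest in the CRC female of 21 days and within the other arrays in the CRC + E171 female of that day.

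The suprabasal keratins separated the 4 arrays from each other. Krt4, the partner of Krt13, had values of 2.10, 1.22, -3.97 and -0.45, against -8.34, -6.94 and -3.24, so that the CRC female of 21 days overlapped with the other arrays. Krt10, the type I keratin of epidermal suprabasal cells, had values of 7.24, -0.16, 6.15 and 3.17, against -1.06, -0.50 and 2.60. The CRC + E171 male of 14 days thus lay within the other arrays for Krt10 and above all of them for Krt13. Krt1, the partner of Krt10, had values of 0.52, -3.91, 0.63 and -1.87, against -6.40, -5.47 and -1.40, as the mean of 2 probes that disagree. The probe that failed the filter was higher on the 4 arrays, and on the others it was well above background on 3 of 27 alone, while the other probe was lower by 0.91. Krt77, another epidermal keratin, showed no such level, with values from -6.90 to -5.87 against -8.45 to -4.78. Krt9, the keratin of thick footpad skin, had 2.98 in the CRC female of 21 days, where the other 3 had -3.03, -4.93 and -4.80 and the 27 others ran from -6.20 to -3.68. Krt76, a keratin of the palate and other cornified mucosa, reached 0.38 on the same array, against -5.31, -6.08 and -8.36 on the other 3 and at most -5.89 on the 27 others.

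Trp63, which encodes p63, had values of 0.62, 0.25, -1.46 and -3.37, against -5.55, -5.20 and -3.91, with no overlap in the mean of its 4 probes. That mean differed by 4.14, whereas the probes that passed the filter differed by 2.09 with overlap, and the brightest probe by -0.58. Tfap2a, a transcription factor of epidermis, had values of -1.28, -3.23, -4.36 and -6.55, against -8.54, -7.76 and -6.13. Of the 14 transcription factor genes 4 had no overlap, and their median difference was 1.54. Sox2, a factor of foregut-type and some other stratified epithelia, was found after the values were seen and had values of -0.76, -0.32, -5.69 and -4.80, against -8.55, -7.36 and -6.08.

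Of 11 desmosome genes, which join neighbouring cells, all had a positive difference and 2 had no overlap, with a median difference of 2.42, or 1.36 over the 9 that passed the filter. Dsg1a, the desmoglein of upper epidermal layers, was well above background only on CRC 7 d male 1 (-1.54) and CRC 21 d female 1 (1.51), and on none of the 27 others, at least 6.08-fold higher in the mean of the 4. In this and other such folds, the dim group was set on each array to the higher of its own signal and the lowest signal that was well above background there. Pkp3, a plakophilin found in most epithelia, differed by 0.60. Among 8 genes of hemidesmosomes and basement membrane the median difference was 0.34. Col17a1, the collagen that anchors basal keratinocytes, was the only member of this list with no overlap (0.02, 1.16, -0.73 and -2.57, against -4.55, -3.76 and -3.15), although its difference fell from 3.24 to 1.40 with the brightest probe alone.

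Cornified envelope precursors, which are cross-linked under the membrane of dying keratinocytes, had a median difference of 5.16 over 48 measured genes, of which 47 had a positive difference and 6 no overlap, and of 3.40 over the 28 that passed the filter. Sprr2d, a small proline-rich precursor, had values of 6.49, 0.51, 0.99 and -0.59, against -8.98, -8.31 and -1.93. Lce3a, a late envelope gene, had values of 4.18, -6.46, 4.17 and 1.89, against -9.26, -8.40 and -1.44, and the CRC + E171 male of 14 days overlapped with the other arrays. Sprr and Lce genes are families of similar copies, so a single copy is uncertain. Sprr2a1 was not well above background on any of the 4 arrays. Tgm1, the membrane-bound cross-linking enzyme of keratinocytes, had values of 1.62, 0.90, -0.72 and -2.28, against -6.61, -4.64 and -1.21. Tgm3, another cross-linking enzyme, overlapped with the other arrays and had a difference of -0.52.

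Among 15 genes of the lipid barrier, the median difference was 2.72. Asprv1, a retroviral-like protease of upper epidermis, had values of 5.21, -0.91, 3.28 and 0.60, against -5.08, -3.80 and -0.56. Cers3, which makes very long chain ceramides, had values of 3.27, 0.50, 0.69 and -1.57, against -6.05, -5.06 and 0.79. Acer1, an alkaline ceramidase, had a median of 2.84 on the 27 others and differed by -0.13. Proteases of shedding cells had a median difference of 3.67 over 17 genes, all of them positive and 5 without overlap. Tmprss11e, a trypsin-like protease of squamous surfaces, was well above background on all 4 arrays and none of the 27 others, at least 15.5-fold higher. Klk13, a kallikrein, had values of 4.58, -5.04, 0.04 and -0.94, against -8.75, -7.82 and -3.01.

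Inhibitors of these proteases had a median difference of 4.57 over 14 genes. Spink5, which restrains epidermal kallikreins, had values of 4.59, 3.25, 3.19 and 0.58, against -8.16, -2.51 and -0.86, with no overlap. Serpinb3a had values of 4.62, -6.89, 2.87 and 0.27, against -9.20, -8.16 and -1.23. The CRC + E171 male of 14 days was again within the other arrays for Serpinb3a and above them for Spink5. Serpinb2 and Serpinb11, serpins of the same cluster of genes, had mean differences of 5.72 and 5.06 with no overlap.

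Of the 8 Ly6 and SLURP family genes 4 had no overlap, among them Lypd3, a surface protein of migrating keratinocytes (5.78, 3.0, 4.27 and 1.37, against -6.41, -5.40 and 0.00). Slurp1, a secreted protein of keratinocytes, had values of 5.28, 1.36, 3.22 and 0.41, against -6.34, -2.87 and -0.38. Calml3, a calmodulin-like protein of epithelia, had values of 4.72, 1.67, 2.73 and 0.11, against -9.30, -8.03 and -2.06. On the 27 other arrays Calml3, Lce3a, Serpinb3a, Gjb6, Sox2 and Mb were well above background on 2, Sprr2d and Klk13 on 3 and Krt4 on 4, so that their low values there are mostly background and differences against them have no order. Of the 5 gap junction genes all had a positive difference and 1 had no overlap. Of 9 keratinocyte cytokines none was without overlap. Il1f6 had values of 2.81, -5.85, 2.19 and -2.13, against -8.66, -7.25 and -2.64, low on most other arrays, so its difference has no order either. Beta-defensins, antimicrobial peptides of barrier epithelia, overlapped as well, and Defb14 had values of 2.71, -4.17, -3.82 and -1.14, against -8.35, -7.55 and -3.09.

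The 4 arrays were not alike. A list's level on an array is the median, over the genes of the list, of how far each lay from its own median on the 27 other arrays. CRC 7 d male 1 had the highest value of the 4 in 141 of the 179 squamous genes, against 8579 of all 24813 genes. On this array 147 of the 179 were more than 2 log2 units above the median of the others, against 1777 of all genes. In CRC 21 d female 1 this held for 120 of the 179 genes and 518 of all. In CRC + E171 21 d female 1 it held for 83 and 299, and in CRC + E171 14 d male 2 for 64 and 738. Of the 91 genes higher on all 4 arrays, CRC + E171 21 d female 1 was the lowest of the 4 in 76 and CRC 7 d male 1 the highest in 74.

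CRC + E171 14 d male 2 had levels of 8.12 for basal keratins and 9.01 for Krt4 and Krt13, but 0.91 for cornified envelope precursors, within the range of the other arrays (-0.56 to 3.18). Its levels for lipid barrier enzymes (0.67, others -0.46 to 0.97) and beta-defensins (0.30, others -0.51 to 0.82) were within the others too. The same held for proteases (0.95), their inhibitors (1.14) and keratinocyte cytokines (0.69), where the others reached 1.84, 2.08 and 1.14. CRC 21 d female 1 had 6.42 for basal keratins, 6.65 for the envelope precursors, and 5.99 for epidermal suprabasal keratins, the highest of the 4 for that list, and it was above all others in each of the 17 squamous lists. CRC + E171 21 d female 1 had 4.32 for basal keratins, 6.86 for Krt4 and Krt13 and 3.69 for the precursors, and 0.65 for the epidermal suprabasal keratins, within the others (-0.69 to 1.12). CRC 7 d male 1 was above all others in 16 of the 17 squamous lists, the exception being hemidesmosome and basement membrane genes (0.22), with 10.26 for beta-defensins, 8.91 for the precursors and 8.27 for protease inhibitors. In these 3 lists 2 of 5, 28 of 48 and 10 of 14 measured genes passed the filter. Their levels are thus partly set against background and have no order.

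**Figure D3:**
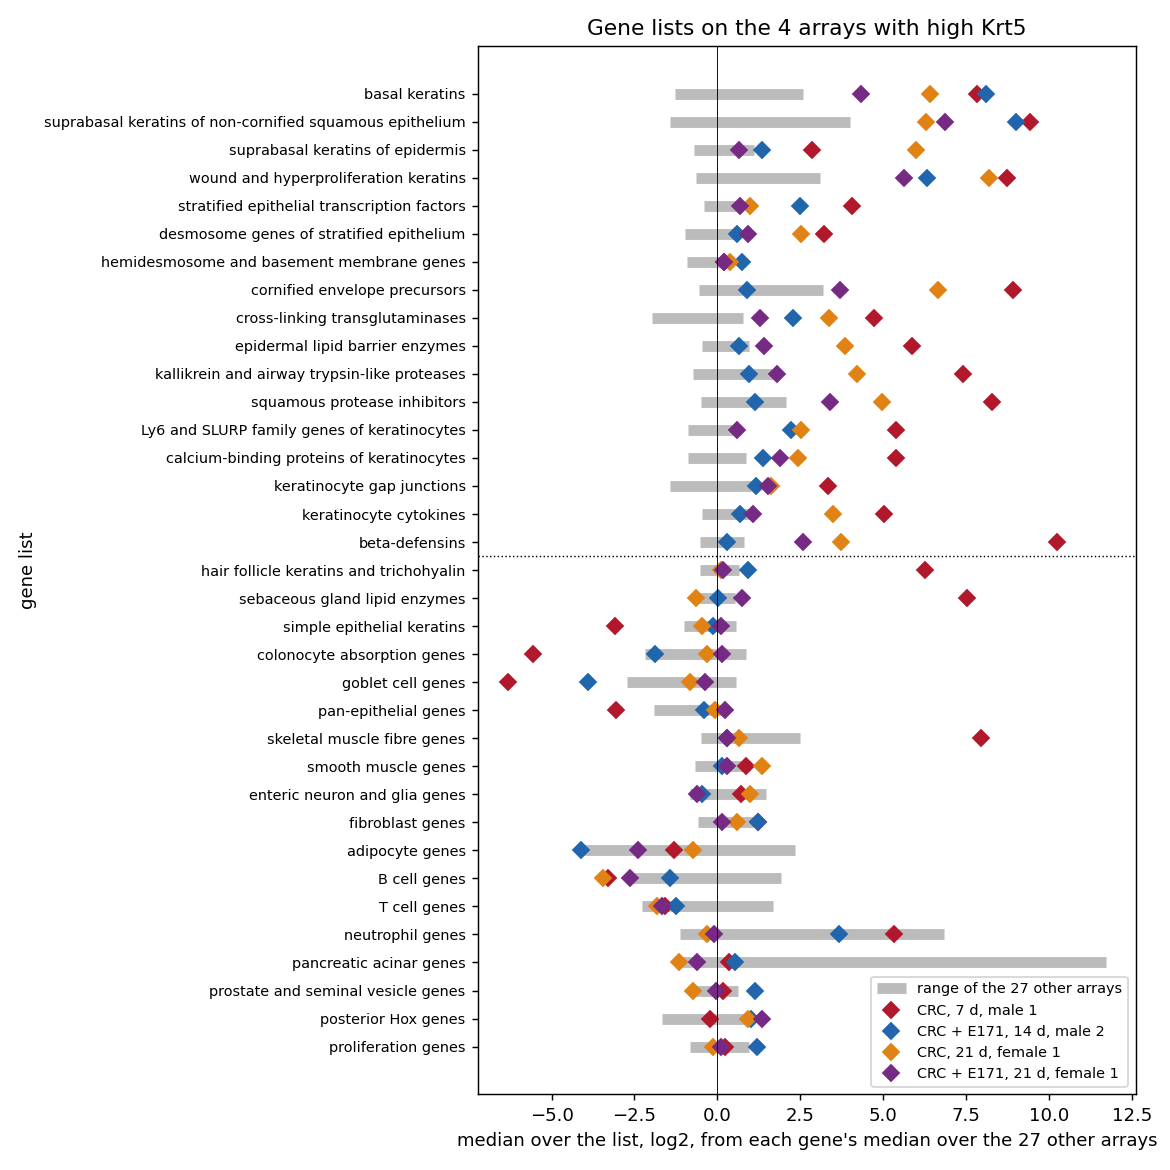
Median level of each gene list (rows) on the 4 arrays with high Krt5, in log2 units from each gene's median over the 27 other arrays (horizontal axis), with grey bars for the range of those arrays and the squamous lists above the dotted line. Basal keratins lie outside the bar on all 4 arrays, whereas the cornified envelope precursors of CRC + E171, 14 d, male 2 lie inside it.

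Genes of other tissues also differed between the 4 arrays. In CRC 7 d male 1, hair follicle keratins and trichohyalin had a level of 6.26 (others -0.52 to 0.66), sebaceous gland enzymes 7.52 (-0.68 to 0.54) and skeletal muscle fibre genes 7.94 (-0.50 to 2.51). On the other 3 arrays these lists lay between -0.63 and 0.93. Hair follicle genes on CRC + E171 14 d male 2 (0.93) and sebaceous genes on CRC + E171 21 d female 1 (0.76) were also above all 27 others. Awat1, a wax synthase of sebaceous glands, had values of 4.08, -7.96, -7.05 and -4.17, against -8.67, -7.79 and -6.69, and was well above background on 2 of the 4 arrays and none of the others. Mb, the myoglobin gene of muscle fibres, had values of 5.60, -8.07, -5.07 and -5.85, against -8.92, -7.88 and 0.34. Krt71, a keratin of the hair follicle's inner root sheath, was 4.03 on CRC 7 d male 1 and at most -4.82 on the 27 others. The 6 melanocyte genes had a level of 0.88 on that array, where the 27 others ran from -0.80 to 0.54.

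Genes of the colonic mucosa were low on 2 of the 4 arrays. Colonocyte absorption genes had a level of -5.56 on CRC 7 d male 1 and -1.86 on CRC + E171 14 d male 2, against -0.32 and 0.15 on the arrays of 21 days and -2.19 to 0.86 on the 27 others. Goblet cell genes had -6.31 and -3.91, both below all others (-2.73 to 0.56), and -0.81 and -0.37 on the arrays of 21 days. Aqp8, a water channel of surface colonocytes, had values of -3.69, -0.40, 5.13 and 6.50, against -3.50, 5.96 and 6.95. Zg16, a lectin of goblet cells, had values of 0.02, 2.81, 6.87 and 7.43, against 6.24, 7.45 and 8.40. Both genes stayed within the other arrays at 21 days. Atoh1, the factor that commits secretory cells, was -8.18 on CRC 7 d male 1 and -2.06 on CRC + E171 14 d male 2, against -2.21 to 2.75. Klk1, glandular kallikrein, was -2.41 and 0.26 on these arrays and 5.07 and 5.97 on those of 21 days, against 4.93 to 7.35, although its probe may share signal with the Klk1b copies.

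Neutrophil genes were high on the same arrays, with levels of 5.33 and 3.66, within a range of -1.13 to 6.84 on the 27 others, whose highest array was CRC 7 d male 2. S100a8, a calcium-binding protein of neutrophils that inflamed keratinocytes also make, had values of 6.84, 4.36, -1.81 and 0.60, against -5.85, -3.84 and 5.52. Psca, a surface antigen of several stratified and glandular epithelia, was found after the values were seen to be high on 3 of the 4 arrays (3.15, 3.39, -4.15 and 0.21, against -7.85, -5.98 and -2.95). The uroplakin gene Upk2 of the bladder lining had values of -4.77, -1.81, -7.99 and -8.38, against -8.78, -7.49 and -4.19. Upk1a of the same family had values from -0.56 to 1.45 on the 4 arrays and from -2.02 to 1.64 on the others. Whether these levels have a part in the squamous signal was not tested.

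Posterior Hox genes, which mark the hindgut end of the body axis, had levels of 1.35 on CRC + E171 21 d female 1, 1.03 on CRC + E171 14 d male 2, 0.93 on CRC 21 d female 1 and -0.22 on CRC 7 d male 1, against -1.66 to 1.10. Hoxd12 had values of -3.18, -0.56, -0.02 and -0.15, against -9.0, -3.40 and 0.29. These levels lay at the upper end of the other arrays in 3 of the 4.

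Fewer genes were lower. With the filter, 22 of 19797 genes (0.111%) were lower on all 4 arrays than on all 27 others and at least 2-fold lower in the mean, and 20 genes were without it. They included immune genes. Spib, a transcription factor of B cells and of the cells over lymphoid follicles, had values of -4.42, -1.79, -2.95 and -1.56, against -1.40, 0.31 and 1.66. Ighg3, an immunoglobulin heavy chain, had values of -3.58, -3.71, -4.46 and -3.71, against -3.14, -1.46 and 0.26. The level of B cell genes was -3.29, -1.43, -3.46 and -2.64 on the 4 arrays and -2.56 to 1.91 on the others, and that of T cell genes was -1.57, -1.25, -1.81 and -1.67 against -2.26 to 1.69. All 8 genes of each of these lists had a negative difference, where 11729 of all 24813 genes had a positive one. Cr2, the complement receptor of B cells and follicular dendritic cells, differed by -3.64. Lbhd2 was well above background on none of the 4 arrays and 24 of the others, at least 4.31-fold lower. Cbfa2t3, a transcriptional corepressor, Mia, Car15, Cabp4, Tmigd3, Ppm1h and Trav14n-1 were the other genes with the widest gaps among those not named for a clone or an accession, with differences from -1.95 to -1.08. The widest gap of all was that of a clone-named gene, AI847159, at least 1.44-fold lower. It and Trav14n-1 were well above background on none of the 4 arrays. B cell levels also varied widely among the other arrays, and whether lymphoid tissue has a part in the squamous difference was not tested.

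Squamous genes did not stop at the 4 arrays. The next highest array was CRC + E171 2 d male 2 in 39 of the 91 genes. Its levels were 2.58 for basal keratins, 3.11 for Krt6a, Krt6b and Krt16, 4.00 for Krt4 and Krt13 and 3.18 for the cornified envelope precursors, the highest of the 27 arrays in each of these lists. CRC 7 d female 2 had 1.71, 2.45, 3.57 and 0.73 for the same lists, and 2.51 for skeletal muscle fibre genes, also the highest of the 27 arrays. Over all squamous genes the level was 6.34, 1.15, 3.85 and 1.72 on the 4 arrays, 1.14 on CRC + E171 2 d male 2 and 0.56 on CRC 7 d female 2. The threshold on Krt5 thus separates 2 arrays whose median over all squamous genes was 1.15 and 1.14.

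**Figure D4:**
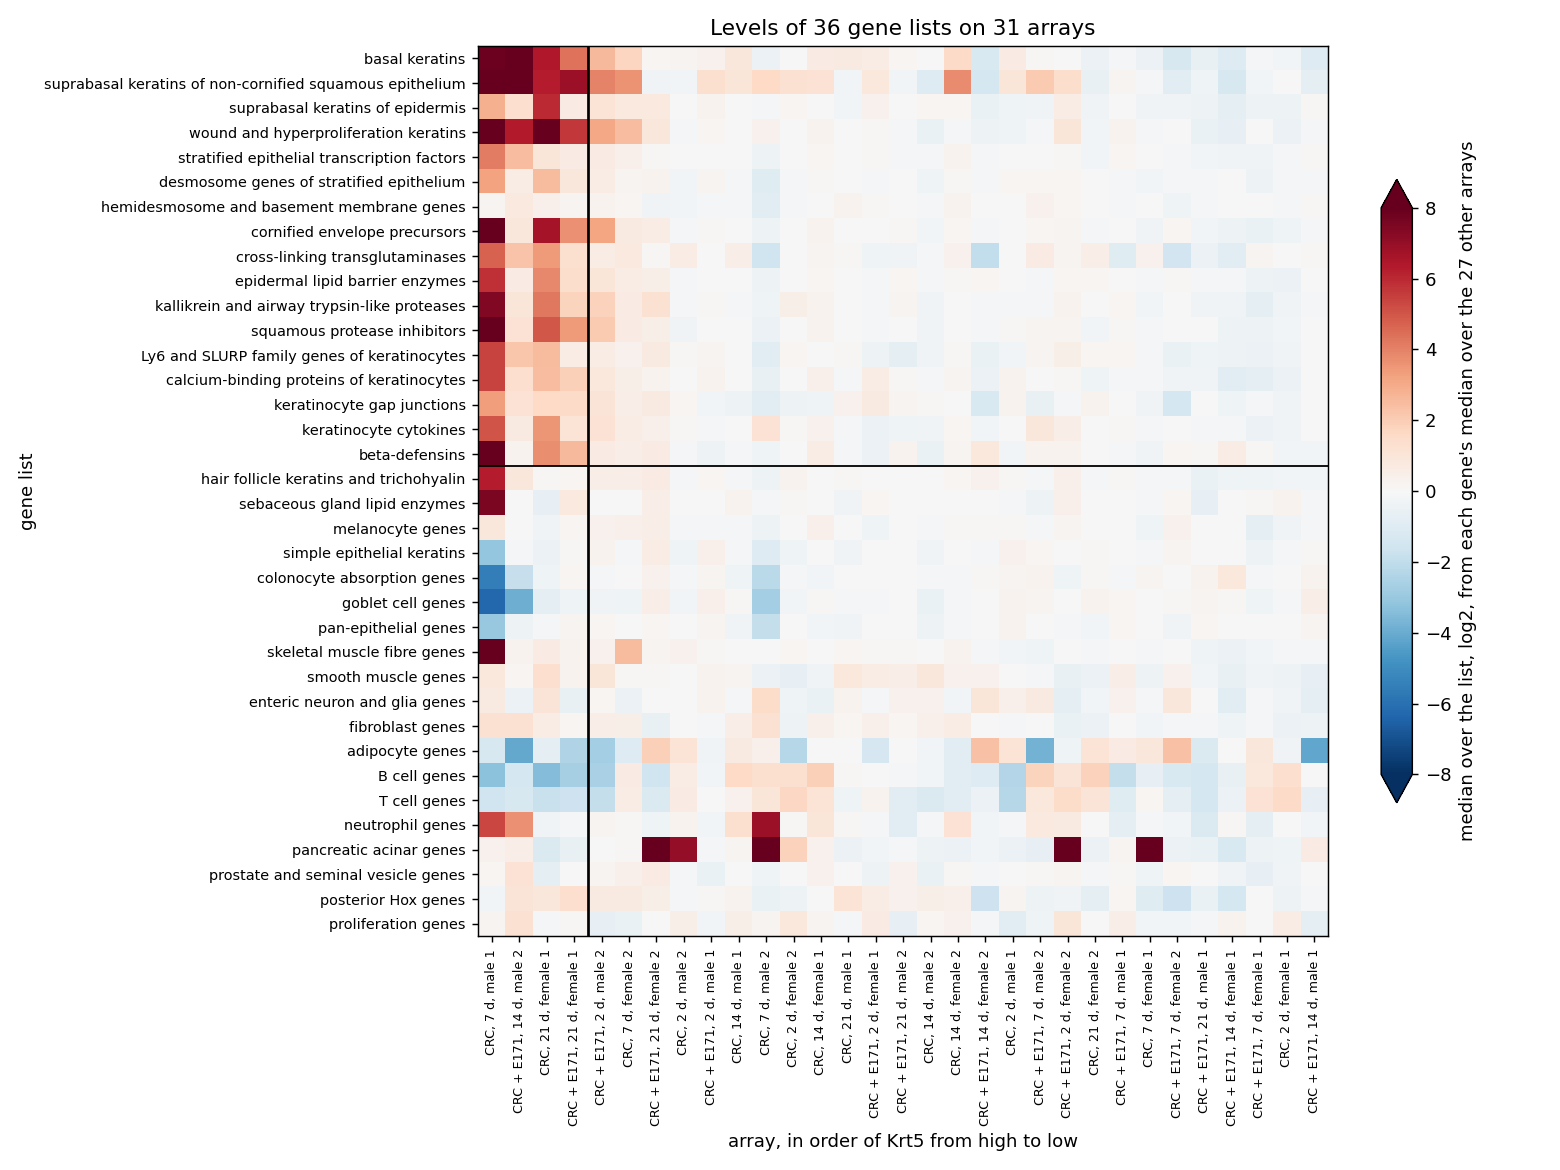
Median level of each gene list (rows) on the 31 arrays (columns, in order of Krt5), as a colour from blue (low) to red (high) in log2 units from each gene's median over the 27 other arrays, with values beyond the ends of the scale shown in the end colour. The vertical line separates the 4 arrays chosen by Krt5, and CRC + E171, 2 d, male 2 follows just to its right with 2.58 for basal keratins.

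Within slides, the median difference over the squamous genes that passed the filter was 3.23, 2.78 and 1.38 on the 3 slides that held both kinds of array. It was 1.70 without CRC 7 d male 1 and 3.21 at most when another of the 4 was left out.

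The 4 arrays stood in both arms of the study, so they entered the comparison of CRC + E171 with CRC at 7, 14 and 21 days. After 7 days, Krt5 was -3.89 ± 2.24 (log2 fold change ± SE, limma adjusted p = 0.378). The CRC arrays had values of 6.65, -2.93, -3.96 and -0.20, and the CRC + E171 arrays ran from -4.45 to -3.52. Krt14 was -2.42 ± 1.96 and Krt13 was -3.94 ± 2.54 (limma adjusted p = 0.554 and 0.437). Without CRC 7 d male 1 the log2 fold change was -1.64 for Krt5, -0.34 for Krt14 and -2.09 for Krt13. Genes were counted as DEG when they changed at least 1.5-fold, up or down, with a p under 0.05 before adjustment. There were 1371 up-regulated (6.93%) and 1084 down-regulated DEG (5.48%), but 0 genes passed after adjustment in limma, where 3327 had an unadjusted p under 0.05. Without CRC female 1 or female 2 of this day 1196 or 533 passed. Of 134 squamous genes 1 was up-regulated and 11 were down-regulated, and their median log2 fold change was -1.57. Leaving out CRC male 2, female 1 or female 2 of this day gave 49, 46 or 26 down-regulated squamous genes, with medians of -2.08, -2.08 and -1.79. Without CRC male 1 alone the median was -0.20. Without the 4 arrays there were 647 up-regulated (3.27%) and 515 down-regulated DEG (2.6%), and the median over the squamous genes was -0.20. Of the 2455 DEG 988 were found in both fits, which is 40.2% of the first list and 85.0% of the second. The count without CRC 7 d male 1 alone was 916, and without female 1 of the same group it was 3973.

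The DEG at 7 days that moved most when the 4 arrays were left out were Myh1, Klk6 and Fam25c. Myh1, a myosin of fast skeletal muscle fibres, was 6.0 on CRC 7 d male 1 and 0.25 on female 2, and -8.91 to -6.43 on the other 6 arrays of the day. Its log2 fold change was -4.99 ± 1.92 with all arrays and -2.09 ± 1.44 without the 4. Klk6, a kallikrein, was 3.15 on CRC 7 d male 1 and at most -7.42 on the other arrays of the day, and its fold change went from -3.31 ± 1.49 to -0.51 ± 0.58. Fam25c went from -4.50 ± 2.18 to -1.79 ± 0.92. With all arrays, 15 of the 17 skeletal muscle fibre genes that passed the filter were down-regulated, where 5.48% of all genes were. Up-regulated were 13 of 18 colonocyte genes and 8 of 12 goblet cell genes, where 6.93% of all genes were. Without the 4 the median log2 fold change went from -2.84 to -1.07, from 2.17 to 0.88 and from 2.28 to 1.01 in these lists. CRC 7 d male 1 was itself extreme for these lists, so no count without the 4 is given. Pancreatic acinar genes went the other way, with a median from -4.93 to -6.56 and 3 of 9 down-regulated with all arrays. With normexp background correction Klk6 (-1.78) and Fam25c (-2.73) were not DEG, and Fam25c was not with quantile normalization (-4.38), the replicate block, the slide as a random block or the scan day as a fixed block either.

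After 14 days, the high array lay in the CRC + E171 arm. Krt5 was 6.58 on CRC + E171 male 2, -4.63 to -3.39 on the other 3 arrays of its group and -3.35 to -2.87 in CRC. Its log2 fold change was 1.71 ± 2.24 (limma adjusted p = 0.895) and turned to -0.96 ± 0.81 without the 4 arrays. Krt14 went from -0.68 ± 1.96 to -3.04 ± 0.79, and Krt13 from -0.88 ± 2.54 to -3.85 ± 1.28. In the remaining CRC + E171 arrays of 14 days Krt14 was -3.05 on female 1, -3.36 on female 2 and -1.37 on male 1, where the CRC arrays had -1.29 to 1.95, so male 1 lay close to the lowest CRC array. Leaving out female 1 or female 2 turned the Krt14 fold change with all other arrays to 0.26 or 0.36. With all arrays there were 642 up-regulated (3.24%) and 614 down-regulated DEG (3.1%), 5 squamous genes in each direction among them. With normexp the split was 1022 up and 217 down, and without CRC + E171 female 2 it was 321 and 675. Without the 4 arrays there were 1063 (5.37%) and 1311 (6.62%), and the median log2 fold change over the squamous genes went from 0.14 to -0.42. With all arrays this median was -0.067 with the scan day as a fixed block and 0.40 with normexp. Leaving out each array of the day in turn, it ranged from -0.42 (CRC + E171 male 2) to 0.29 (CRC + E171 female 1). The fits with and without the 4 shared 937 DEG, 74.6% of the first list and 39.5% of the second. In limma 0 genes passed after adjustment in either fit, where 1580 had an unadjusted p under 0.05 with all arrays. The arrays were left out for their Krt5, which narrows the spread of the squamous genes (median SE 1.02 with all arrays and 0.596 without the 4), so no p and no count of DEG is given for these genes without them.

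The DEG that moved most at 14 days were Krt36, Hoxd12 and Anxa8. Krt36, a type I hair keratin, was 3.30 on CRC + E171 male 2, -6.01 to -1.91 on the other arrays of the group and -1.92 to 2.47 in CRC, and its fold change went from -3.04 ± 1.34 to -4.91 ± 1.12. Hoxd12 went from -4.09 ± 1.65 to -5.78 ± 1.61, with -9.0 and -8.67 on females 1 and 2 of CRC + E171. Of 9 posterior Hox genes 4 were down-regulated and 1 up-regulated with all arrays, where 3.1% and 3.24% of all genes were. Their median log2 fold change went from -1.31 to -1.98 without the 4. Anxa8, an annexin of stratified epithelia, was 4.68 to 5.34 in CRC and 4.14, -2.55, 6.51 and -0.56 in CRC + E171, and it went from -3.19 ± 1.26 to -4.73 ± 1.15. Krt36 was not a DEG without the filter on dim probes (-1.43 ± 0.77) or with normexp (-2.31 ± 1.13), nor was Hoxd12 with normexp (-2.0 ± 1.13) or with the authors' values (-2.82 ± 1.48).

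After 21 days each arm held 1 high array. Krt5 was 5.60 against -3.60 and -3.05 within CRC, and 2.88 against -4.18 to -2.59 within CRC + E171. Its log2 fold change was -1.41 ± 2.42 (limma adjusted p = 0.961) with all arrays and 0.01 ± 0.97 without the 4. Krt14 went from -1.60 ± 2.12 to -0.01 ± 0.95 and Krt13 from -1.84 ± 2.74 to -0.54 ± 1.53. There were 167 up-regulated (0.844%) and 361 down-regulated DEG (1.82%), with 0 and 2 squamous genes among them, Krt16 and Il1f10. The split was 41 up and 652 down with the authors' values, 457 and 336 without the filter, 266 and 89 with normexp, and 195 and 601 with the groups of the day alone. Without the 4 arrays, which left 2 arrays in CRC, there were 226 (1.14%) and 317 (1.6%), and the median over the squamous genes went from -0.56 to 0.076. Leaving out each array of the day in turn, this median ranged from -1.08 (CRC female 2) to 0.37 (CRC female 1). The fits with and without the 4 shared 270 DEG, 51.1% and 49.7% of the lists. Of the DEG that moved most, Krt16 went from -2.96 ± 1.22 to -0.26 ± 0.43 and Krt9 from -2.55 ± 1.01 to 0.00 ± 0.52. Both were high on the CRC female 1 array alone at 21 days (6.43 and 2.98). Zfp976, a zinc finger gene, went from 3.32 ± 1.32 to 5.08 ± 1.47, where CRC male 1 had -8.55 and the other 6 arrays 1.28 to 2.08, but it was -0.61 with the authors' values. With only the groups of the day in the fit, none of the 9 genes named here as moving most at 7, 14 or 21 days was a DEG. The fold changes there are differences of the same group means, so only the estimate of the spread differed. After adjustment in limma 0 genes passed at 21 days, where 1149 had an unadjusted p under 0.05.

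**Figure D5:**
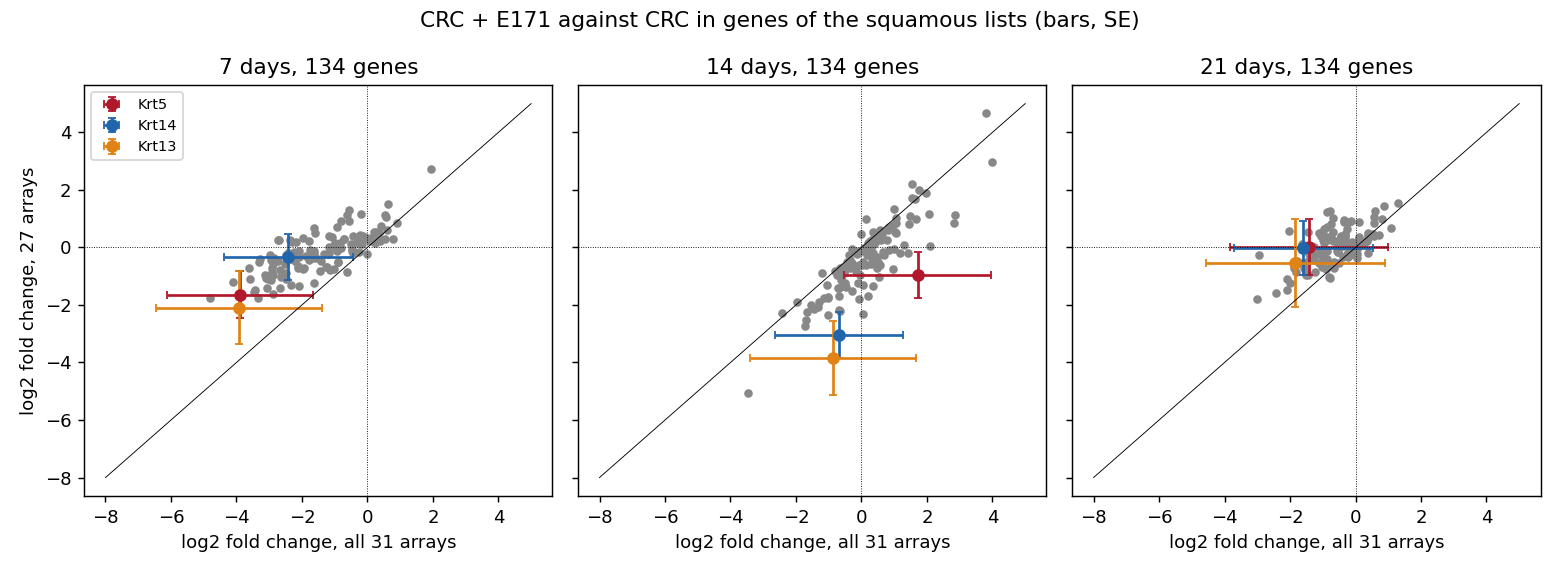
Log2 fold change of CRC + E171 against CRC with all 31 arrays (horizontal axis) and with 27 arrays (vertical axis) at 7, 14 and 21 days, 1 point per squamous gene that passed the filter, with bars of 1 SE for Krt5, Krt14 and Krt13. Points off the diagonal moved when the 4 arrays were left out, and at 14 days Krt5 moved from 1.71 to -0.96.

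The E171 effect on Krt5 was 5.61 ± 3.16 higher at 14 than at 7 days (limma adjusted p = 0.573). The same difference was 1.74 ± 2.77 for Krt14 and 3.06 ± 3.59 for Krt13 (limma adjusted p = 0.835 and 0.765). For a difference of the effect between 7 and 14 days, 0 genes passed after adjustment in limma, where 1788 had an unadjusted p under 0.05.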

How the data were processed

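The authors scanned one-colour Agilent arrays with 56605 probes other than controls and extracted them with Feature Extraction 10.7.3.1. The deposited intensity of each spot is a processed signal that the authors' software had background-subtracted, with no normalization between arrays. Also deposited by the authors were log2 values, filtered, imputed and normalized, which served as an alternative. Here spots flagged as outliers were left out, and the log2 processed signal was set against the array's 75th percentile. Probes were matched to RefSeq symbols by accession, symbol or synonym, and probes of a gene were averaged. The filter asked of a probe that, in some group, 60% of arrays be well above background with a group mean of 4 or more (log2), and 19797 genes passed. R 4.3.3 and limma 3.58.1 fitted 8 group means over 31 arrays with empirical Bayes variances, and p-values were adjusted by the Benjamini-Hochberg method over all genes. The fit and the counts were also run on simulated normal values, with changes placed only in genes of below-median spread. That run does not cover genes as variable as many of the squamous ones.

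The arrays, the gene lists and the tests were chosen with earlier results of these data known. Named are Krt5, Krt14 and Krt13, in each squamous list the 2 largest differences and the smallest, in each other list the largest absolute difference, the 10 widest gaps in each direction among genes not named for a clone or accession, and per day the 3 DEG that moved most. For shortness, some genes of the rule are given by list only. A few genes that the rule names are not reported here. Alternatives were quantile normalization, normexp background correction (offset 50), no filter, the authors' values, the brightest probe, other model terms, and leaving out arrays.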

Additional observations from a re-analysis of the deposited data

Results flagged for a closer look

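Among groups of 4 arrays, single arrays lay far from the rest of their group by Dixon's criterion at the 95% level in 5 of 28 cases, over Krt5, Krt14, Krt13 and the median of the squamous genes. Chance gives about 1 in 20 for values that were not selected, but these arrays were chosen by Krt5, so the values are a description and no test. In CRC + E171 at 14 days, male 2 lay apart for Krt5 (6.58, the next array at -3.39) and for Krt13 (4.19, the next at -6.47). In CRC + E171 at 21 days, female 1 lay apart for Krt14 (2.95, the next at -0.75) and Krt13 (1.57, the next at -6.11). In CRC at 7 days, male 1 lay apart for the median over the squamous genes (6.34, the next at 0.56). CRC at 21 days held 3 arrays and was not examined this way.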

How the results depend on the processing

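The p-values measure the spread between mice within groups of 3 or 4, pooled over all 8 groups in 1 fit, so arrays of other days enter it. No slide held both groups of a day, and the arrays left out were chosen by Krt5. Leaving out each of the 4 arrays in turn gave 66 to 221 genes higher (67 with all) and 28 to 70 lower (22 with all), with the extremes in both directions without CRC + E171 21 d female 1 (221 and 70), and 118 higher and 54 lower without CRC + E171 14 d male 2 and 43 lower without CRC 21 d female 1. The median difference over the squamous genes ranged from 1.70 to 3.21. With normexp 10 genes were lower.

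The DEG numbered 2455, 1256 and 528 at 7, 14 and 21 days, and 0 at each with an adjusted p under 0.05. Without the 4 arrays the counts were 1162 at 7 days and 2374 at 14 days. With the groups of the day alone they were 946 at 7 days and 796 at 21 days, and without the filter 793 at 21 days. Leaving out each array in turn gave 916 to 3973, 883 to 2130 and 439 to 890 DEG, with 2130 without CRC + E171 14 d male 2 and 890 without CRC 21 d female 2. After adjustment 1196 genes passed at 7 days without CRC female 1 and 533 without CRC female 2, and at 14 days 3 without CRC + E171 male 2, 2 without CRC + E171 female 2 and 2 with the authors' values, and 1 at 7 days without the filter. With labelled sex and replicate number as a replicate block the counts were 2541, 1521 and 837, and the deviations of 15 same-numbered pairs correlated from -0.18 to 0.48, 8 of them above 0.1, so the numbers were not taken to pair the mice.

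Directions turned for Krt13 at 14 days with normexp (0.76), for Krt5 without the 4 arrays (-0.96 at 14 days and 0.012 at 21 days), for Krt9 at 21 days without them (0.0037) and for Zfp976 at 21 days with the authors' values (-0.61). Leaving out each array in turn, the log2 fold change at 7 days ranged from -5.18 to -1.64 for Krt5, from -3.31 to -0.34 for Krt14 and from -5.35 to -2.09 for Krt13, with the highest value of each without CRC male 1. At 14 days it ranged from -0.96 to 2.78 for Krt5, from -3.04 to 0.36 for Krt14 and from -3.85 to 0.42 for Krt13, with the lowest value of each without CRC + E171 male 2. At 21 days it ranged from -3.04 to 1.56 for Krt5, from -3.10 to 1.0 for Krt14 and from -3.90 to 1.52 for Krt13, with the highest value of each without CRC female 1, and for Zfp976 from -0.15, without CRC male 1, to 5.16. For the turns the cause was not tested.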
